A study of Mus musculus with 4 samples.

Results

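The genes examined were 6 secreted factors that act on osteoclasts and on cells of the myeloid lineage: Tnfsf11 (RANKL), Tnfrsf11b (osteoprotegerin), Csf1 (M-CSF), Csf2 (GM-CSF), Csf3 (G-CSF) and Il34. They were chosen by name, and every probe whose accession is a RefSeq transcript of one of them was taken, which gave 8 probes in 26 spots among 55681 probes in 59305 spots, or 6 of 37074 genes or unnamed transcripts. Tnfsf11 (NM_011613), Tnfrsf11b (NM_008764), Csf3 (NM_009971) and Il34 (NM_029646) each had 1 probe in 1 spot, Csf2 (NM_009969) had 1 probe in 10 spots, and Csf1 had 1 probe in 10 spots (NM_007778) and a pair of probes in 1 spot each (NM_001113530).

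RNA came from primary chondrocytes of 6-day-old C57BL/6J mice and was hybridised to a 1-colour Agilent mouse expression array. All mice carried the floxed Rela allele on both chromosomes (Rela fl/fl), and the conditional knockout (cKO) mice, Prrx1-Cre;Rela fl/fl, also carried a Cre recombinase driven by the Prrx1 promoter, which acts in limb mesenchyme. Rela is the p65 subunit of NF-κB, which carries much of the transcriptional response to tumour necrosis factor (TNF). Cells of each genotype received 10 ng/mL TNF for 3 days or were cultured without it. Rela fl/fl cells without Cre are called control cells below, and each of the 4 conditions was measured on 1 array, so no difference below has a replicate check and no p-value was computed.

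RANKL binds its receptor RANK on osteoclast precursors and drives them to become bone-resorbing osteoclasts, while osteoprotegerin is a secreted decoy receptor that holds RANKL away from RANK. M-CSF and IL-34 both signal through the receptor Csf1r, on which osteoclast precursors and macrophages depend for survival. GM-CSF and G-CSF act mainly on granulocytes and macrophages, and chondrocytes are known to release several of these factors when exposed to inflammatory cytokines.

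The 250 bases before the gene start are shown for the member with an NF-κB motif in that window and for Tnfsf11, the RANKL gene, which has none. RefSeq's promoter table (GRCm38.p6) held windows for 3 of the 6 members, Tnfsf11, Csf1 and Csf2. The NF-κB consensus motif, searched on both strands, occurred once, in Csf1, from -154 to -145 relative to the gene start, where the capitals mark it. It lies there on the strand opposite to the printed one. The Csf1 window is chr3:107760470-107760719 and the Tnfsf11 window is chr14:78308044-78308293, both on the minus strand and printed 5′ to 3′ in the direction of the gene.
Csf1: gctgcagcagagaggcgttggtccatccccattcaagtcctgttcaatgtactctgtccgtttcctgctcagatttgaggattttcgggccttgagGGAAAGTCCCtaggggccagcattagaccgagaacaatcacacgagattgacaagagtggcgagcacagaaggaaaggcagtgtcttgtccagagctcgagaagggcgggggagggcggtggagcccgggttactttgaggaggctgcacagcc
Tnfsf11: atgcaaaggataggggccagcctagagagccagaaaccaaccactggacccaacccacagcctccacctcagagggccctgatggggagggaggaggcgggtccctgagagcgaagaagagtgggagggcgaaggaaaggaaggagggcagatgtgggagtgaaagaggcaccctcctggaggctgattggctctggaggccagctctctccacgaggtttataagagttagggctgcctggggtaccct
Over all 32851 windows of the table, 3.9% held the NF-κB consensus motif, and neither the Tnfsf11 nor the Csf2 window did. The AP-1 motif TGANTCA, also searched on both strands, was in none of the 3 windows and in 6.75% of all windows. A match is a description of the letters only.

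Signals are given relative to the 75th percentile of each array's transcript spots (signal 1), which lay at intensities of 590 to 634. Between 50.9% and 58.1% of probes were well above background in the software's call. Bright patches were found on each array, places where at least 3 of the 54 surrounding spots exceeded all the remaining arrays 2-fold or more. They held 10.7% and 7.17% of spots for control cells without and with TNF and 9.46% and 1.04% on the cKO-labelled arrays. Repeated spots of 1 probe gave a technical SD of 0.14 for a log2 difference between arrays, or 0.33 at signals under 0.1, 0.18 at signals of 0.1 to 1 and 0.09 above 1. This covers spots on an array and not animals, cultures or labelling. Rela itself was at 28.3 and 34.7 in control cells without and with TNF and at 33.9 and 40.2 on the cKO-labelled arrays, so its signal was not lower there. The position of its probe relative to the deleted part is not given in the sources used here, and the cKO label is therefore used as written. Xist passed the background call on both control arrays and on neither cKO-labelled one, whereas the Y-linked Ddx3y and Eif2s3y passed it on all 4, Uty on the cKO-labelled arrays alone and Kdm5d on none. Ddx3y and Eif2s3y were at 1.30 and 1.77 to 1.84 in control cells against 3.66 to 4.23 and 6.23 to 6.53 on the cKO-labelled arrays. Of 4 Y-linked genes, 2 were thus detected in control cells beside Xist, and the makeup by sex and the genotype label cannot be told apart. All 10 chondrocyte markers were well above background on all 4 arrays (summed signal 1277 to 1615), as were all 6 fibroblast markers (379 to 467). Between the genotypes the chondrocyte markers had a median log2 difference of -0.56 without TNF and -0.38 with it, against 0.02 and 0.06 over all genes, and Matn1, a cartilage matrix protein, was past 2-fold, at 89.9 and 73.4 in control cells without and with TNF and at 24.9 and 32.3 on the cKO-labelled arrays. The fibroblast markers had medians of -0.30 and -0.32, with Thy1 past 2-fold without TNF (2.56 against 0.852). The part of these shifts in the genotype comparisons below was not tested. Of 9 macrophage and osteoclast markers 7 or 8 were well above background, with Ptprc (CD45), a marker of all leukocytes, not well above background on any array. Summed signals of the macrophage and osteoclast markers were 80.5 to 84.8. Such a sum follows its brightest probes and gives no order of the genes' levels, and probe by probe Lyz2 and Tyrobp were lower (0.658 to 0.153 and 0.118 to 0.0386) and Adgre1 higher (0.0788 to 0.577) from the control to the cKO-labelled array without TNF, the first and last of these 3 with a spot in a patch. Of 6 T and B cell markers, 5, all but Cd3e, were not well above background on any array. In bulk RNA, fewer cells of a type and less RNA per cell cannot be told apart.

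Tnfsf11 and Il34 were the members that differed by 2-fold or more in any comparison, while Tnfrsf11b and Csf1 were well above background on all 4 arrays and moved by less. Csf2 and Csf3 were not well above background on any array. With TNF, Tnfsf11 was higher in both genotypes, Il34 was 1.56-fold higher in control cells and 2.54-fold higher on the cKO-labelled arrays, and the largest difference, that of Tnfsf11 in control cells, rested on a spot inside a bright patch.

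**Figure D1:**
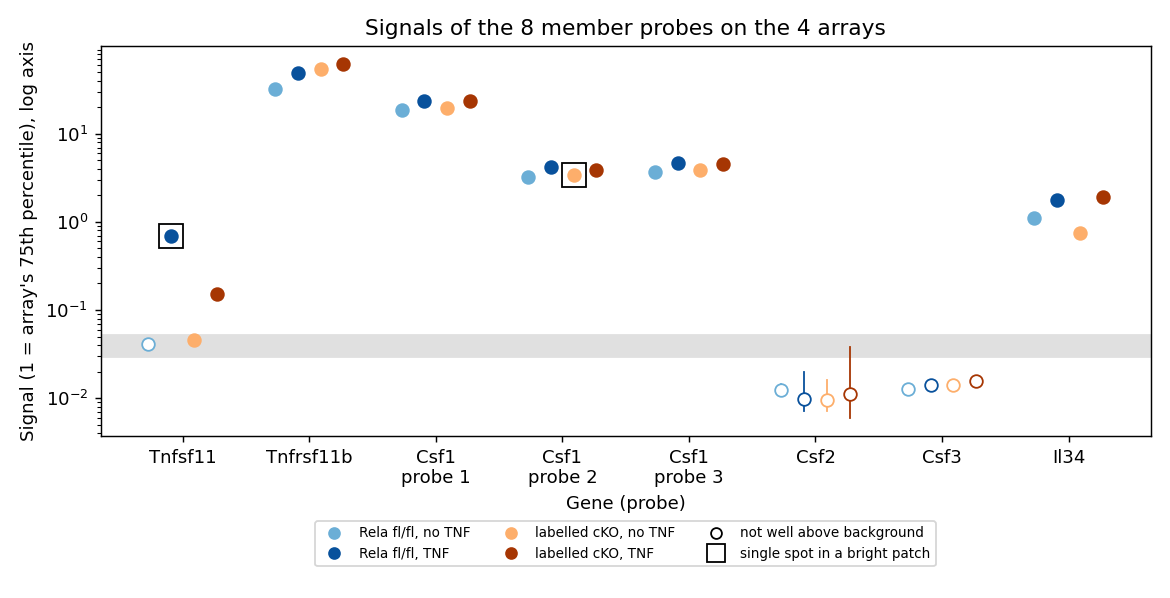
Signal of each member probe on the 4 arrays (log axis, 1 = the 75th percentile of the array). Open circles are probes not well above background, vertical lines the range over spots of 10-spot probes, squares single spots in a bright patch, and the grey band the lowest signals called well above background (0.0296 to 0.0524 by array). Tnfsf11 spans the widest range, and Csf2 and Csf3 lie below the band on average.

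Tnfsf11 encodes RANKL, the ligand that induces osteoclasts. Its signal was 0.0408 in control cells without TNF, where the spot was not well above background, and 0.686 with TNF. On the cKO-labelled arrays it was 0.0453 without TNF and 0.153 with TNF, both well above background. It was thus higher with TNF than without it in both genotypes, the value of control cells with TNF came from a spot in a bright patch, and the arrays without TNF lay near the limit of detection.

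On the cKO-labelled arrays, Tnfsf11 was 3.38-fold higher with TNF (log2 difference 1.76), with no bright neighbour of its spot on either array. Its difference exceeded the technical SD of 0.33 for dim spots, and 52 of 24717 genes had a higher one. With the spots in patches left out, 29 of 21655 genes had a higher one. With a normexp background correction the log2 difference was 0.66, below the 2-fold limit.

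In control cells, Tnfsf11 was at least 13.1-fold higher with TNF (log2 difference at least 3.71) and at least 4.51-fold with normexp. This is a lower bound because the dim signal was raised to the lowest signal called well above background on its array, 0.0524. That spot lay in a patch on the array with TNF, where 24 of 51 surrounding transcript spots were bright, against 0 on each of the other arrays. Of the surrounding spots, 27 had a signal under 0.1 on the other 3 arrays, and their median intensity was 87.1 on this array (quartiles 21.1 and 578, highest 1621) against 7.07 on the others. The Tnfsf11 spot had an intensity of 424, and 8 of those 27 spots were at or above it. Without spots in patches the array gave no Tnfsf11 value, and the part of the patch in the difference was not tested.

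**Figure D2:**
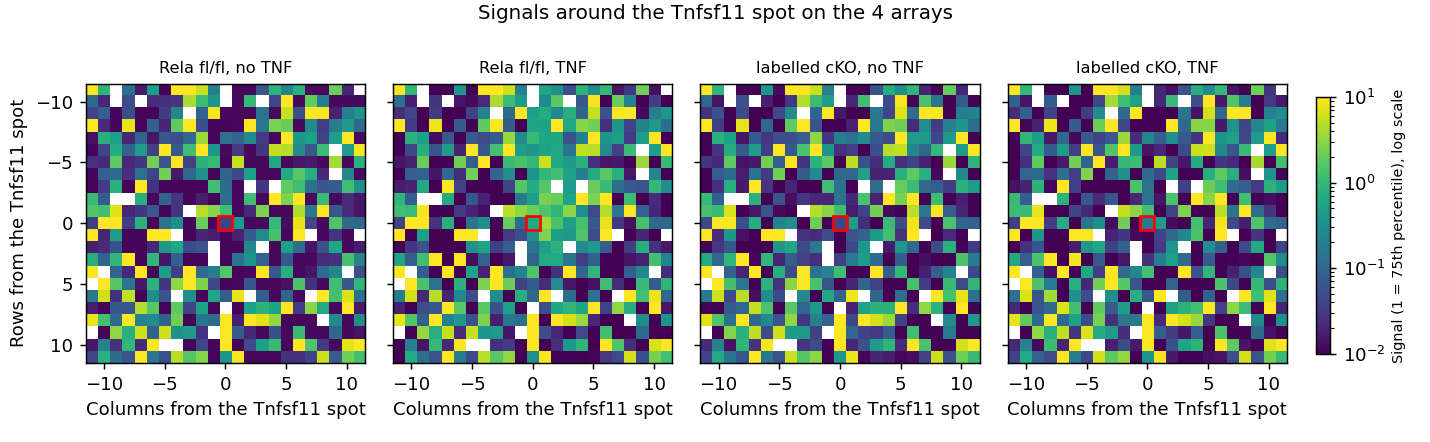
Signal of the transcript spots within 11 rows and 11 columns of the Tnfsf11 spot (red square) on the 4 arrays, on a log colour scale, with control spots in white. On the array of control (Rela fl/fl) cells with TNF, a green streak of raised signal runs through and above the spot, and the other 3 arrays show none there.

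The same spot sets the comparison of the genotypes with TNF. Tnfsf11 was 4.48-fold lower on the cKO-labelled array than in control cells (log2 difference -2.16), or 2.68-fold with normexp, and 23826 of 24209 genes had a higher difference. The TNF change of Tnfsf11 was likewise smaller on the cKO-labelled arrays (a log2 difference of -1.95 or lower), and neither value exists without spots in patches. Without TNF the genotypes gave no difference for Tnfsf11, because the dim signal, once raised to the detection limit of its array, was above that of the cKO-labelled array.

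Tnfrsf11b encodes osteoprotegerin, the decoy receptor for RANKL. Its signal was 32.5 in control cells without TNF and 49.4 with TNF, and 54.6 and 62.8 on the cKO-labelled arrays. It was lowest in control cells without TNF and highest on the cKO-labelled array with TNF, and its spot lay in no patch. Without TNF it was 1.68-fold higher on the cKO-labelled array (log2 difference 0.75, with 1233 of 23321 genes higher), and with TNF 1.27-fold higher (0.34). Of 5 markers of osteoblasts, cells known to make osteoprotegerin and RANKL, Ibsp was at 4.16 and 3.49 in control cells without and with TNF and at 9.14 and 6.85 on the cKO-labelled arrays, while the summed signal of the list was 6.75 and 5.57 and 12.0 and 9.90. Alpl was at 0.690 and 0.553 and at 0.925 and 0.796, Sp7 at 0.0780 and 0.0300 (the latter not well above background) and at 0.127 and 0.129, and Bglap2 at 1.80 and 1.49 and at 1.83 and 2.11. The median log2 difference of the 4 measured markers between the genotypes was 0.56 without TNF and 0.75 with it, with Ibsp past 2-fold without TNF and Sp7 with it (at least 1.81). Phex was not well above background on any array, 3 or 4 of the 5 markers were on each, and their part in the result was not tested.

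TNF went with a 1.52-fold higher Tnfrsf11b signal in control cells (log2 difference 0.60) and a 1.15-fold higher one on the cKO-labelled arrays (0.20). Both differences exceeded the technical SD of 0.09 for bright spots. For this single spot the software gave errors of 3462 and 3700 at intensities of 34624 and 37004 on the cKO-labelled arrays without and with TNF. Before scaling, those intensities lay closer together than either error. The change on the cKO-labelled arrays less that in control cells was -0.40 on the log2 scale, against a technical SD of 0.20 for a difference of differences over all signals. Under quantile normalization the TNF change on the cKO-labelled arrays was 0.05.

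Because osteoprotegerin acts by binding RANKL, the changes of both genes were set side by side. With TNF, the log2 change of Tnfsf11 exceeded that of Tnfrsf11b by at least 3.11 in control cells (1.58 with normexp), resting on the spot in the patch, and by 1.56 on the cKO-labelled arrays, where no spot of either gene lay in a patch. The latter is a 2.94-fold higher ratio of the signals with TNF than without it, or 1.39-fold with normexp. The ratio itself is not given, since the levels of different probes cannot be compared.

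Csf1 encodes M-CSF, a survival factor of osteoclast precursors and macrophages. The 10-spot probe had a mean signal of 18.8 in control cells without TNF and 23.3 with TNF, and 19.9 and 23.4 on the cKO-labelled arrays. Its spots on 1 array had an SD of 0.03 to 0.05 on the log2 scale. The spots of control cells ran from 17.7 to 19.5 without TNF and from 22.3 to 24.0 with TNF, and those of the cKO-labelled arrays from 18.6 to 20.8 and from 21.9 to 24.4. Both ranges with TNF thus lay above both ranges without it in this scaling, although the spots of an array share 1 RNA sample.

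The log2 change of Csf1 with TNF was 0.31 ± 0.019 in control cells and 0.23 ± 0.021 on the cKO-labelled arrays (standard error over 10 spots an array), or 1.24-fold and 1.17-fold, for the gene whose window holds the NF-κB motif shown above. The change on the cKO-labelled arrays was 0.13 without scaling, 0.12 in the authors' value table and 0.10 with quantile normalization. The standard error over spots does not cover such moves. The genotypes differed by 0.08 ± 0.021 without TNF and by 0.00 ± 0.019 with TNF. On the array of control cells with TNF, 3 of the 10 spots lay in patches and averaged 23.0 against 23.5 for the 7 others. For this bright probe the spots inside patches were thus no brighter than those outside, and the same held for the single spot in a patch on the cKO-labelled array without TNF (18.6 against 20.0).

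Both other Csf1 probes moved the same way. The first was at 3.25 in control cells without TNF and 4.17 with TNF, and at 3.42 and 3.90 on the cKO-labelled arrays. The second was at 3.74 and 4.67, and at 3.94 and 4.51. Their log2 changes with TNF were 0.36 and 0.32 in control cells and 0.19 on the cKO-labelled arrays, so the 3 probes of the gene gave 0.31 to 0.36 and 0.19 to 0.23, and no Csf1 probe passed 2-fold. On the cKO-labelled arrays the 3 probes gave 0.08 to 0.13 without scaling, 0.08 to 0.12 in the authors' value table and 0.10 to 0.11 with quantile normalization. The first of the probes with 1 spot lay in a patch on the cKO-labelled array without TNF, with 3 bright neighbours.

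Csf2, which encodes GM-CSF, had mean signals of 0.0124 and 0.00980 in control cells without and with TNF and of 0.00942 and 0.0112 on the cKO-labelled arrays. Of its 10 spots an array, 1 spot on the cKO-labelled array with TNF was called well above background, at 0.0379, and none was on the other arrays. Csf3, which encodes G-CSF, was at 0.0126 and 0.0142 and at 0.0140 and 0.0155. The means of both genes lie below the lowest signals called well above background, so no change of either gene with TNF was detected, a change that stayed under those signals could not have been measured, and no fold is given.

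Il34 encodes the other ligand of Csf1r. Its signal was 1.12 in control cells without TNF and 1.75 with TNF, and 0.749 and 1.90 on the cKO-labelled arrays. Both arrays with TNF were above both arrays without it, the cKO-labelled array without TNF was the lowest, and no Il34 spot lay in a patch or had a bright neighbour. The log2 change with TNF was 0.64 in control cells and 1.34 on the cKO-labelled arrays, where 87 of 24717 genes had a higher change.

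The TNF change of Il34 was thus 0.70 larger on the cKO-labelled arrays on the log2 scale, whereas that of Tnfrsf11b was smaller there, and so was that of Tnfsf11, which rests on the spot in the patch. The genotypes were apart without TNF, with Il34 lower on the cKO-labelled array (log2 difference -0.58), and close with TNF (0.12). Without spots in patches, 301 of 17983 genes had a higher change than Il34 in control cells and 58 of 21655 on the cKO-labelled arrays.

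**Figure D3:**
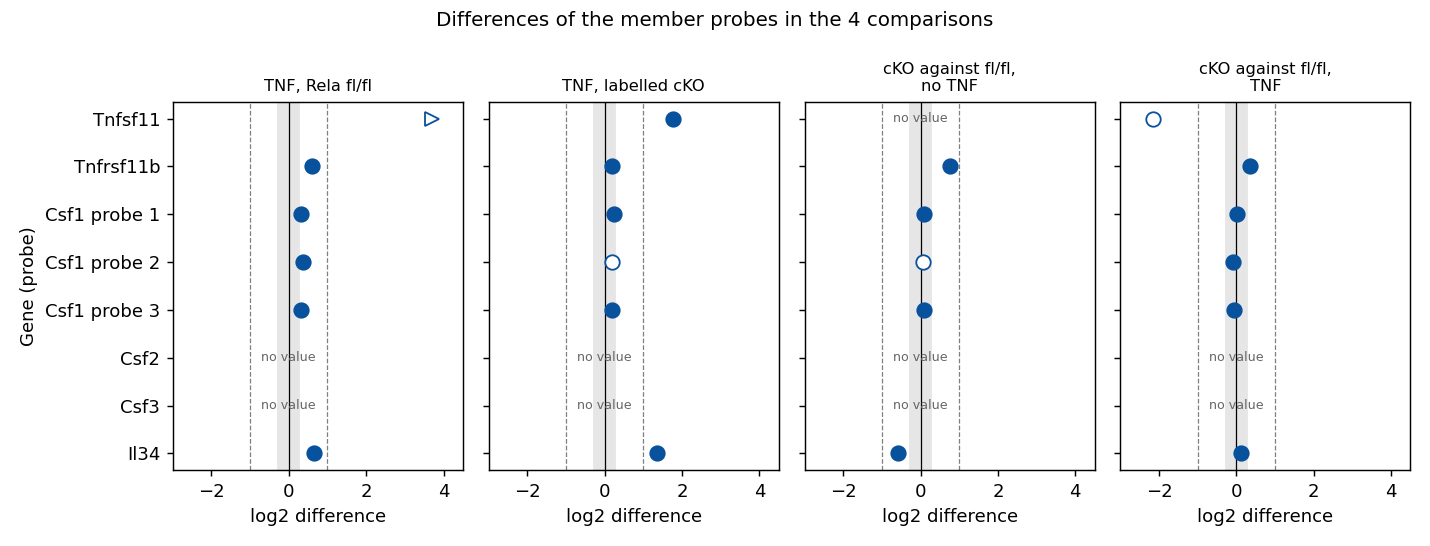
log2 difference of each member probe in the 4 comparisons. The grey band spans 2 technical SDs to each side, dashed lines mark 2-fold, the triangle is a lower bound, and open symbols rest on a single spot in a patch. Tnfsf11 and Il34 pass 2-fold on the cKO-labelled arrays, and Csf2 and Csf3 have no value.

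Of the 6 members, 4 were measured (the background call was passed on 1 or both of the arrays compared) in each comparison. With TNF in control cells 1 of the 4 was higher by 2-fold or more (Tnfsf11) and none lower, against 2.4% of 23413 genes higher and 4.27% lower. On the cKO-labelled arrays 2 of the 4 were higher (Tnfsf11 and Il34) and none lower, against 0.759% of 24914 genes higher and 4.27% lower. The median log2 difference of the 4 was 0.62 in control cells and 0.79 on the cKO-labelled arrays, against 0.01 and 0.06 over all genes. In control cells the 4 include the Tnfsf11 bound, which rests on a spot in a patch.

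Between the genotypes, members past 2-fold were counted in the same way. Below that limit, Tnfrsf11b (log2 difference 0.75) and Il34 (-0.58) differed without TNF by more than the technical SD of 0.14. Without TNF 0 of the 3 members with a value passed 2-fold on the cKO-labelled array, against 3.54% of 24279 genes higher and 4.14% lower, and with TNF 1 of 4 was lower (Tnfsf11), against 1.18% of 24523 genes higher and 3.08% lower. The median log2 difference of the members was 0.08 without TNF and 0.06 with it, against 0.02 and 0.06 over all genes. Without spots in patches the shares over all genes were smaller, 0.597% higher and 0.716% lower for TNF in control cells, 0.65% and 1.62% on the cKO-labelled arrays, 1.30% and 0.834% between the genotypes without TNF and 1.07% and 0.98% with TNF. Then 0 members passed 2-fold in control cells, 2 on the cKO-labelled arrays and 0 between the genotypes.

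**Figure D4:**
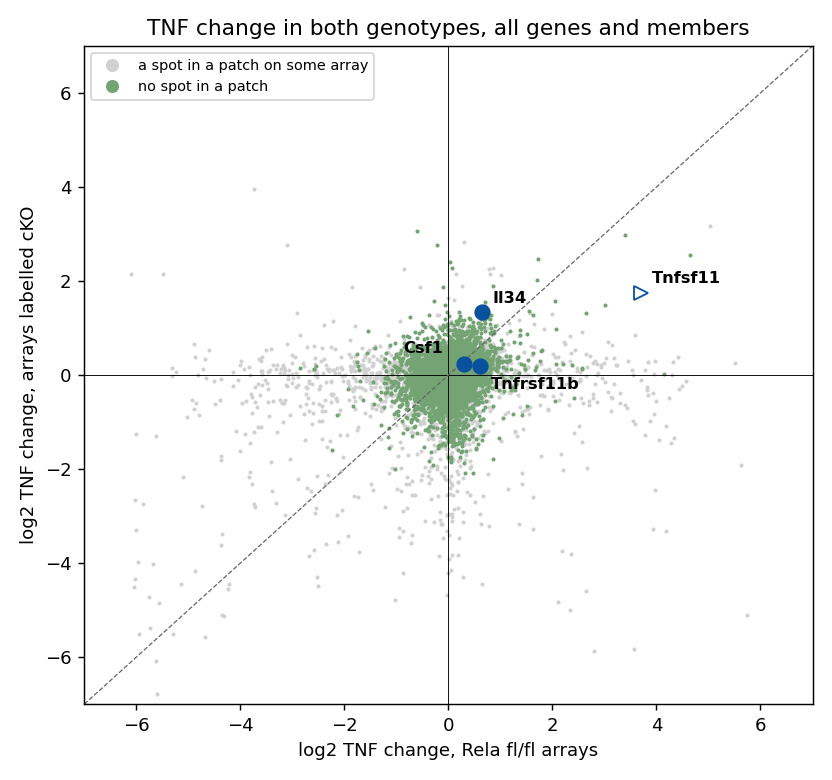
log2 TNF change in control cells (horizontal) against that on the cKO-labelled arrays (vertical) for the 21721 genes with both. Grey points are genes with a spot in a patch on some array, green points the other 15662, the dashed line marks equal change, and the open triangle for Tnfsf11 marks a bound that rests on a spot in a patch. Il34 lies above the line, Tnfrsf11b below it and Csf1 close to it.

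Of 9 receptors of these factors, 8 were measured, and by the brightest probe of each, 0 passed 2-fold in any of the 4 comparisons. Over all genes, 0.759% to 3.54% were higher by 2-fold or more and 3.08% to 4.27% lower, so 0 of 8 lies near those shares. Tnfrsf11a, which encodes RANK, ranged from 0.879 to 0.940 over the 4 arrays, Csf1r, the receptor of both M-CSF and IL-34, from 2.79 to 3.05, and Csf2ra, a subunit of the GM-CSF receptor, from 7.22 to 7.66. Each of these spanned less than the change of Il34 or Tnfsf11. Sdc1, a syndecan that binds IL-34, ranged from 4.59 to 5.07, and Lgr4, a further RANKL receptor, from 0.567 to 0.681. Csf2rb, the shared subunit of the GM-CSF receptor, ranged from 0.0997 to 0.146 and its relative Csf2rb2 from 0.174 to 0.232. A second probe of Csf2rb passed 2-fold, at 0.758 in control cells with TNF and not well above background on the other 3 arrays (log2 differences of at least 3.85 with TNF in control cells and at most -4.68 between the genotypes with TNF), and its single spot there lay in a patch with 17 bright neighbours. Csf3r, the G-CSF receptor, ranged from 69.5 to 99.7, highest on the cKO-labelled array without TNF. Ptprz1, a phosphatase that binds IL-34, was not well above background on any array.

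Of 54 further genes of the pathway, receptors included, 40 were measured with TNF in control cells, where 3 were higher by 2-fold or more and 2 lower (median log2 difference 0.09), against 2.4% and 4.27% of all genes. On the cKO-labelled arrays 41 were measured, 5 higher and 1 lower (0.11), against 0.759% and 4.27%. Without TNF 1 of 40 was higher on the cKO-labelled array and 3 were lower (0.02), against 3.54% and 4.14%, and with TNF 2 of 42 were higher and 5 lower (0.06), against 1.18% and 3.08%.

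The chemokines Ccl2 and Ccl5, which attract monocytes, rose with TNF past 2-fold in both genotypes. Ccl2 was at 0.914 and 29.7 in control cells without and with TNF and at 0.913 and 8.23 on the cKO-labelled arrays, so it was equal without TNF and lower on the cKO-labelled array with it (log2 difference -1.85). Its probe has 10 spots, of which 1 lay in a patch on the array of control cells with TNF and 1 on the cKO-labelled array without TNF. Ccl5 was at 0.127 and 1.33 and at 0.0416 and 0.330, lower on the cKO-labelled arrays both without TNF (log2 difference -1.61, or -0.63 with normexp) and with it (-2.01), and its spot lay in no patch.

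Il6, a cytokine that raises RANKL in stromal cells, was well above background only in control cells with TNF, at 0.387. It was at 0.0190 there without TNF and at 0.0117 and 0.0267 on the cKO-labelled arrays. Its log2 difference was at least 2.88 with TNF in control cells and at most -3.71 between the genotypes with TNF, and its spot lay in no patch. Cxcl12, a chemokine that retains haematopoietic cells, was at 25.6 and 40.7 in control cells and at 12.9 and 10.3 on the cKO-labelled arrays. The log2 difference between the genotypes was -0.99 without TNF and -1.99 with it. Cxcl12 has 2 probes, and counted by any probe or by their mean it was past 2-fold without TNF as well. Sfrp1, a secreted Wnt inhibitor, was at 0.229 and 0.234 and at 0.175 and 0.115, a log2 difference of -1.03 between the genotypes with TNF, which was under 2-fold with quantile normalization (-0.89) and normexp (-0.62).

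The genes Fosl1 and Ptgs2 passed 2-fold upward between the genotypes with TNF, and Cx3cl1 passed it for TNF on the cKO-labelled arrays. Cx3cl1, a membrane-bound chemokine, was at 5.20 and 6.93 in control cells and at 5.11 and 11.7 on the cKO-labelled arrays, where TNF went with a log2 change of 1.19, and the genotypes with TNF differed by 0.75. Fosl1, an AP-1 subunit, was at 0.594 and 0.813 and at 0.876 and 1.86, with log2 differences of 1.08 for TNF on the cKO-labelled arrays and 1.19 between the genotypes with TNF. Its spot lay in a patch in control cells with TNF. Ptgs2, the cyclooxygenase that starts prostaglandin synthesis, was at 0.485 and 0.732 and at 0.859 and 1.51 (log2 difference 1.04 between the genotypes with TNF), with 1 of its 10 spots in a patch on each control array. This last difference was 0.97 without scaling, 0.98 in the authors' value table and 0.93 with normexp, and that of Fosl1 for TNF was 0.98, 0.97 and 0.94. The difference of Fosl1 between the genotypes with TNF was 0.98 with normexp and had no value without spots in patches.

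The remaining genes past 2-fold rested on single spots in patches or on dim signals. Il3 was well above background only in control cells without TNF (0.0782), and Ptger2, a prostaglandin E2 receptor, only on the cKO-labelled array without TNF (0.418), and each of these spots lay in a patch. Atp6v0d2, a proton pump subunit of osteoclasts, was at 0.128 in control cells without TNF, also in a patch, at 0.0733 on the cKO-labelled array with TNF and not well above background on the other 2 arrays.

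**Figure D5:**
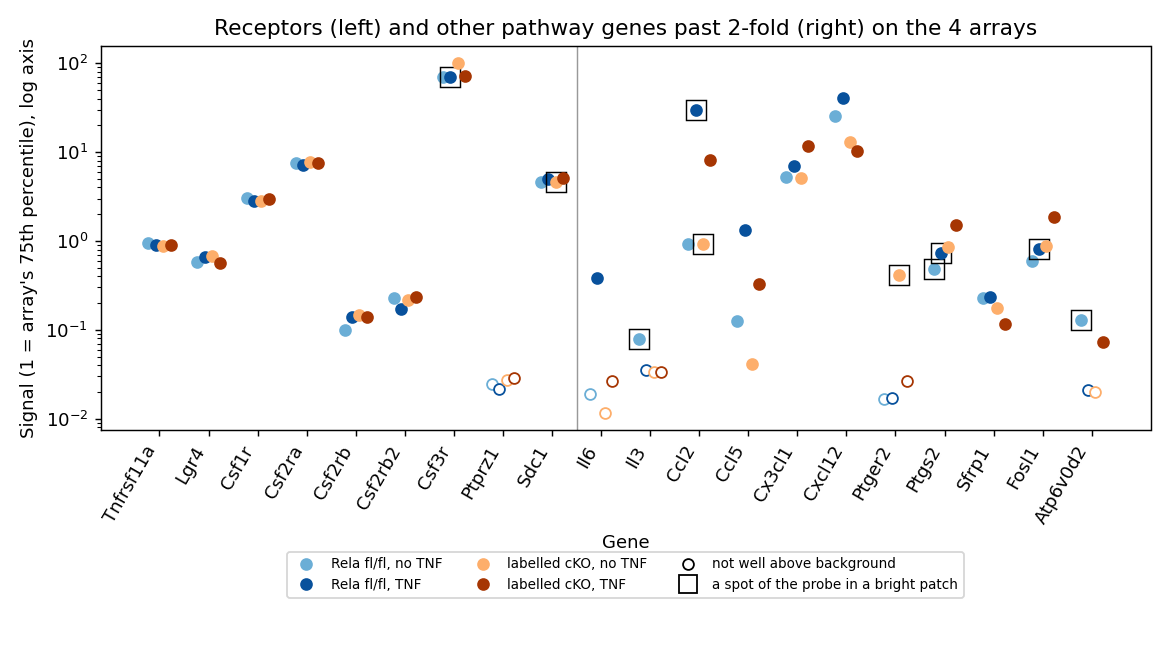
Signals of the 9 receptors (left of the line) and of the other pathway genes past 2-fold in some comparison (right), on a log axis with 1 = the 75th percentile of the array. Open circles are not well above background, and squares mark a probe with a spot in a patch. By these brightest probes no receptor passes 2-fold, which lies near the shares over all genes, while Ccl2, Ccl5 and Il6 are highest in control cells with TNF.

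Known targets of TNF served as a check of the treatment. Nfkbia, which encodes the inhibitor of NF-κB, was at 3.48 and 9.93 in control cells and at 3.35 and 6.11 on the cKO-labelled arrays, and Cxcl1, a neutrophil chemokine, at 0.220 and 1.77 and at 0.129 and 0.360. Tnfaip3, a feedback inhibitor, was at 0.253 and 0.870 and at 0.240 and 0.343, and Icam1, an adhesion molecule, at 0.432 and 0.823 and at 0.268 and 0.314. The log2 changes with TNF in control cells and on the cKO-labelled arrays were 1.51 and 0.87 for Nfkbia, 3.01 and 1.49 for Cxcl1, 1.78 and 0.51 for Tnfaip3 and 0.93 and 0.23 for Icam1. All 4 changed less on the cKO-labelled arrays, as Tnfrsf11b did and Il34 did not, and none of their spots lay in a patch.

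Il34 was the member for which genes of like pattern could be named, since it was well above background on all 4 arrays and spanned more than 1 on the log2 scale. By the distance of the 4 centred log2 signals, the nearest of 9658 genes outside patches were Plvap (0.17), Dapk2 (0.21) and Rrad (0.24). Plvap was at 0.320 and 0.519 in control cells and at 0.239 and 0.514 on the cKO-labelled arrays. With 4 arrays such a likeness is a description only.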

How the data were processed

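RNA of primary chondrocytes from control and cKO littermates, with or without TNF, was measured on 4 Agilent arrays, 1 per condition. Per spot, the authors deposited an intensity processed by Feature Extraction 10.10.1.1 (background subtracted, trends across the array removed) and flags for outliers, saturation and background. A second deposited table holds that intensity times 1 factor per array (1.77 to 1.83), whose basis is not given in the sources used here.

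Each log2 intensity had the 75th percentile of its array subtracted. Outlier spots were left out (138 to 225 an array), and no transcript spot was saturated. Repeated spots were averaged per probe, and a gene with several probes was read from the brightest one. Symbols came from RefSeq's table by accession, and 27235 of 55681 probes had one. A gene was measured in a comparison when 1 or both arrays passed the background call, and was counted at a log2 difference of 1 with the brighter array passing it. For a dim probe the detection limit of the array, its lowest passing signal, took the place of the signal, which gives a bound. Log2 values under -4.5 were raised to it before patches were searched, within 5 rows and 2 columns. Technical spread came from 399 probes with 10 spots. The precision is limited by 1 array per condition.

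The members and lists were chosen with earlier results of these data known. Named were all member probes, 9 receptors, other pathway genes past 2-fold in at least 1 comparison, Rela, 4 TNF targets and, for a member that spanned at least 1 on the log2 scale on arrays all well above background, the 3 nearest genes outside patches. Sex-linked genes and cell type markers were named outside this rule, after their values were seen. Alternatives covered scaling, background, patches, filter, limit and probe summary. The counting and patch rules were tested on simulated data. Python 3.11.15, numpy 2.4.6, pandas 2.3.3, R 4.3.3 and limma 3.58.1 were used.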

Additional observations from a re-analysis of the deposited data

Results flagged for a closer look

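With TNF, 3 of 25 named genes went in opposite directions in the genotypes by more than 0.14 in each, the technical SD over all signals, and the difference was not tested. The 25 hold pathway genes named for passing 2-fold in these comparisons, and no share over all genes is given, so the count is a description only. Cell type markers were left out of it, although some, such as Thy1 (-0.69 and 0.63) and Matn1 (-0.29 and 0.38), also went in opposite directions. The 3 genes were Lgr4, Cxcl12 and Atp6v0d2. Lgr4 had a log2 change of 0.18 in control cells and -0.26 on the cKO-labelled arrays, the former no larger than the technical SD of 0.18 at its signals. Cxcl12 had 0.67 and -0.33, with no spot in a patch. Atp6v0d2 had -1.80 and 1.04, both bounds (the latter 0.93 without scaling and 0.44 with normexp), and its spot lay in a patch in control cells without TNF. No member was among these 3 genes.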

How the results depend on the processing

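Under up to 5 alternatives each, no difference of a member probe past 2-fold changed its sign. Of 139 recomputed member values, 130 moved by less than the technical SD over all signals (0.14, or 0.20 for a difference of differences). No scaling and the authors' value table gave 29 values each and shift all probes of an array alike, by too little to pass that SD. Without spots in patches, members with no spot in a patch kept their values, and the Tnfsf11 values that rest on the patch were absent. The count therefore does not measure how stable the values are. No paired analysis was possible because each condition has 1 array and the labels give no replicate numbers, and for the same reason there was no array to leave out.

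The member counts moved as follows. For TNF in control cells the main count of 1 became 3 at the 1.5-fold limit (Tnfrsf11b and Il34 added), and 0 with both arrays well above background or without spots in patches. For TNF on the cKO-labelled arrays the 2 became 1 at the 3-fold limit (Tnfsf11) and 1 with normexp (Il34). Without TNF the 0 became 1 at the 1.5-fold limit (Tnfrsf11b), and with TNF the 1 became 0 without spots in patches.

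The count of pathway genes for TNF in control cells was 5, and became 10 at the 1.5-fold limit, 2 with both arrays well above background, 3 with normexp and 3 without spots in patches. For TNF on the cKO-labelled arrays it was 6, and became 10 at the 1.5-fold and 3 at the 3-fold limit. Between the genotypes without TNF it was 4, and became 8 at the 1.5-fold limit and 1 each with both arrays well above background, normexp or no spots in patches. With TNF it was 7, and became 13 at the 1.5-fold and 4 at the 3-fold limit and 4 with normexp.

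For single probes, normexp gave Tnfsf11 2.17 for TNF in control cells, 0.66 on the cKO-labelled arrays and -1.42 between the genotypes with TNF, and Il34 1.20 on the cKO-labelled arrays. Quantile normalization gave Tnfsf11 2.04 on the cKO-labelled arrays and -2.03 between the genotypes with TNF, and Tnfrsf11b 0.05 on the cKO-labelled arrays. The TNF change of Tnfsf11 differed between the genotypes by -1.51 and -1.69 under these settings. No scaling and the authors' value table shift all probes of an array alike, by less than the technical SD over all signals (0.14). That no member value moved past that SD was therefore fixed beforehand and is no check of the members. On the cKO-labelled arrays they took the TNF change of Tnfrsf11b from 0.20 to 0.096 and 0.089. This shift exceeded the technical SD of 0.09 for bright spots. In control cells Tnfrsf11b went from 0.60 to 0.61 and 0.57, which did not exceed it. The cause of the moves under normexp and quantile normalization was not tested. Signals near background limit Csf2 and Csf3, and Tnfsf11 in control cells is limited by a dim spot without TNF and by the patch around its spot with TNF.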
